A study of Mus musculus with 2 samples.

Results

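The 10 genes described here are tissue residency genes outside the integrins, genes known from memory T cells that settle in a tissue and do not recirculate. They were given by symbol as Zfp683, Cd69, Rgs1, Cxcr6, Ahr, Qpct, Osgin1, Litaf, Inpp4b and Cdh1. Of the 22609 genes counted, 9 of the 10 were matched by symbol, and Zfp683, which encodes the transcription factor Hobit, is not analysed here. RNA was measured in CD8+ regulatory T cells, a suppressive subset, obtained by flow sorting from the spleen of naive mice aged 3 months. One library came from Tgfbr2-/-Eomes-/- mice, which by genotype lack a TGF-beta receptor subunit and the T-box transcription factor Eomesodermin, and is called DKO. One library came from WT mice. How many mice were pooled, the gate of the sort, the strain, and how and in which cells the genes were deleted are not described in the labels, and a tag for positive cells in the names of the count tables is not explained there.

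Resident memory T cells stay in a tissue because they do not respond to the egress signal sphingosine-1-phosphate and because adhesion and chemokine receptors hold them in place. CD69 and RGS1 dampen egress and chemokine signals, CXCR6 binds the chemokine CXCL16, and Hobit and the related factor Blimp-1 repress genes of recirculating cells. TGF-beta is known to favour residency, most clearly through the integrin CD103, and Eomes is known to be low in many resident memory cells. Spleen cells are largely recirculating, so these genes are read here in a lymphoid organ and not in a barrier tissue.

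Gene counts totalled 19661212 in the DKO library and 22307065 in the WT library. Levels are given as CPM, counts brought to a common library size, after TMM scaling for composition. Both deleted genes were still counted in the DKO library, and counts over a whole gene do not show whether its deleted exons were read. Eomes had 180 CPM in the DKO library and 469 CPM in the WT library, and was 2.61-fold lower (interval 2.52 to 2.72). Tgfbr2 had 244 CPM in the DKO library and 357 CPM in the WT library, and was 1.46-fold lower (1.41 to 1.51). Intervals here are exact 95% intervals of counting error. Each genotype has 1 library, so the differences have no replicate check, no p-value was computed, and what is compared is a pair of libraries, not the genotypes.

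In the DKO library 5 of the 9 residency genes were higher, while Cd69, Rgs1 and Cxcr6 differed least. Qpct, Osgin1, Cdh1, Litaf and Ahr each reached 2-fold with an interval that did not include 1, 0 of the 9 were lower by that rule, and 4 (Inpp4b, Rgs1, Cxcr6 and Cd69) stayed within 2-fold. Of all 11735 genes that reached 1 CPM in one library or the other, 11.6% were higher by the same rule and 3.60% were lower. All 9 genes passed the 1 CPM minimum in both libraries. Their median log2 ratio (DKO over WT) was 1.24, against 0.00 for all genes compared, and 8 of the 9 ratios lay above 0. The set was chosen with earlier results of these data known, so these values describe it and are not a test. In bulk RNA, more cells of a type and more RNA per cell cannot be told apart.

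**Figure D1:**
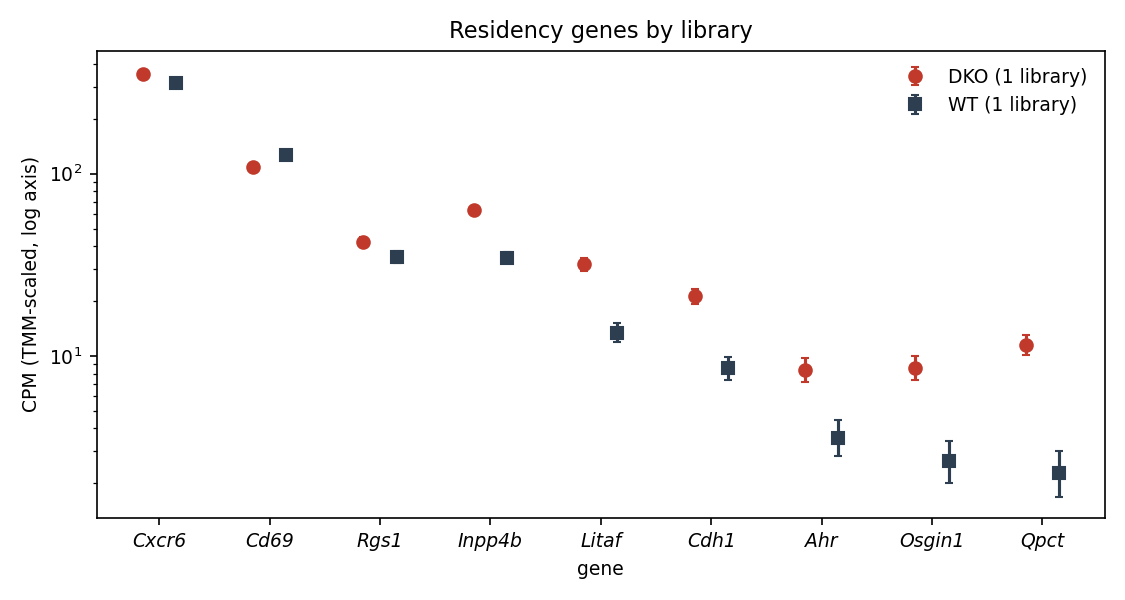
Level of each residency gene in CPM (log axis) in the DKO library (red circles, left of each pair) and the WT library (dark squares), with exact 95% Poisson intervals of counting error. Qpct is at 11.5 CPM in the DKO library and 2.28 CPM in the WT library, while the Cxcr6 and Cd69 pairs lie close together.

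A smaller share of genes was called higher at higher levels, so the members were also read against genes of like level, where level means the larger of a gene's CPM values. Between 5 and 20 CPM, 18.8% of 2398 genes were higher, and Ahr, Qpct and Osgin1 lay there. Between 20 and 100 CPM, 4.71% of 4928 genes were higher, and of the 4 residency genes there Litaf and Cdh1 were higher and Rgs1 and Inpp4b were not. At 100 CPM or more, 2.17% of 2627 genes were higher, and Cd69 and Cxcr6 were not among them. Across the 9 genes the Spearman correlation of level with log2 ratio was -0.78, and across all genes compared it was -0.24. The points share the same libraries and their ratios and levels come from the same counts, so this is a description.

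**Figure D2:**
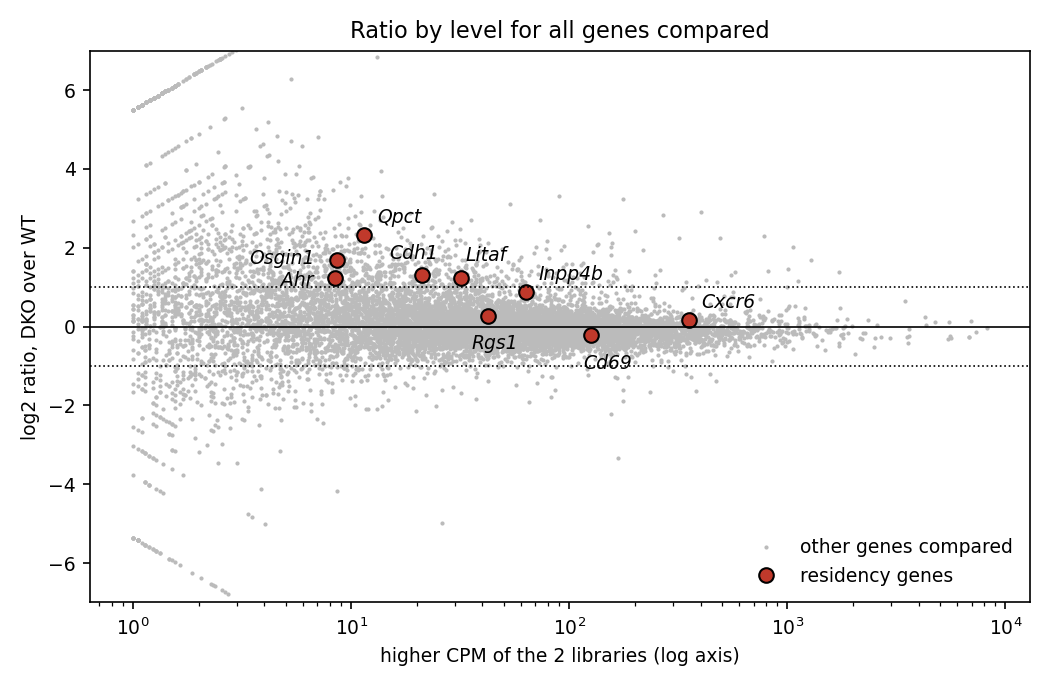
Log2 ratio (DKO over WT) against the higher CPM of the libraries (log axis) for all genes compared (grey) and the 9 residency genes (red); dotted lines mark 2-fold. Slanted grey lines at the left are genes with few or no counts in one library, and 10 genes lie outside the axis. The residency genes above the upper line lie between 8.40 and 31.9 CPM.

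Cd69 encodes a surface lectin that binds the egress receptor S1PR1 and removes it from the cell surface. It had 2166 counts (108 CPM) in the DKO library and 2769 counts (126 CPM) in the WT library, the only residency gene with the lower value in the DKO library. Its ratio was 0.858 (0.811 to 0.908), or a log2 ratio of -0.22, which became 0.022 when the scaling rested on genes of the T cell receptor complex, which moved the median of all genes to 0.25. S1pr1, its binding partner, had 432 CPM in the DKO library and 578 CPM in the WT library, with a ratio of 0.747 (0.727 to 0.768). Both genes were a little lower in the DKO library, and neither reached 2-fold.

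Rgs1 encodes a regulator that speeds the switching-off of G proteins behind chemokine receptors. It had 845 counts (42.3 CPM) in the DKO library and 767 counts (34.97 CPM) in the WT library, a ratio of 1.21 (1.09 to 1.33). Of its 6 relatives compared, Rgs2 was 2.21-fold higher (2.08 to 2.35), at 151 CPM in the DKO library and 68.4 CPM in the WT library. Rgs10 was 2.05-fold lower (1.96 to 2.14), at 139 CPM in the DKO library and 285 CPM in the WT library. Rgs10 was no longer past 2-fold with either total-count scaling or T cell receptor gene scaling. In the family 1 gene was higher, 1 lower and 4 neither, beside 11.6% higher and 3.60% lower among all genes compared. The 4 included Rgs3 at a log2 ratio of -0.29 and Rgs18 at 0.59.

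Cxcr6 encodes the chemokine receptor that holds T cells in liver and other tissues. It had 7062 counts (353 CPM) in the DKO library and 6920 counts (315 CPM) in the WT library. The ratio was 1.12 (1.08 to 1.16), so the libraries differed little at the gene with the most counts of the 9. Cxcl16, the gene of its ligand, made mainly by antigen-presenting cells, was 3.30-fold higher (2.76 to 3.98), at 24.3 CPM in the DKO library and 7.34 CPM in the WT library. Markers of dendritic cells had a median log2 ratio of 1.17 in the same comparison, and their part in the Cxcl16 value was not tested.

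In the GENCODE M21 annotation of GRCm38, Cxcr6 lies inside Fyco1 on the opposite strand, with no shared exonic base, on chromosome 9. Fyco1 had 51.3 CPM in the DKO library and 49.8 CPM in the WT library, a log2 ratio of 0.04. The same chromosome holds Tgfbr2 and Eomes, with 81 and 77 protein-coding genes between each of them and Cxcr6. Chemokine receptor genes and other neighbours of Cxcr6 were found on both sides, with 4 of 11 higher, 1 lower and 6 neither. The shares among all genes compared were 11.6% higher and 3.60% lower. Xcr1, a receptor gene of cross-presenting dendritic cells, was 3.99-fold higher, from 321 counts in the DKO library and 88 in the WT library. Ccr9, the receptor gene for homing to the small intestine, was 2.55-fold higher, from 499 counts in the DKO library and 214 in the WT library. Ccr1 and Ccrl2, which myeloid cells express, had ratios of 2.27 and 2.44. The ratio of Cxcr6 lay below those of these 4 genes and close to that of Fyco1.

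Ahr encodes the aryl hydrocarbon receptor, a transcription factor switched on by dietary and environmental ligands that supports lymphocytes of skin and gut. It had 168 counts (8.40 CPM) in the DKO library and 78 counts (3.56 CPM) in the WT library, and was 2.36-fold higher (1.80 to 3.13). Both counts are low and the interval is wide. Its exons share 127 bases with a lincRNA gene on the opposite strand in GENCODE M21, 2.06% of their length. Of the 10 other genes of its pathway, 6 were compared, with 1 higher, 0 lower and 5 neither. The share higher among all genes compared was 11.6%. Tiparp, a target gene of the receptor that also responds to other signals, was 2.53-fold higher (2.17 to 2.96), at 27.4 CPM in the DKO library and 10.8 CPM in the WT library. Ahrr, the target that encodes its repressor, had 20 counts in the DKO library and 16 in the WT library, a ratio of 1.36 whose interval (0.675 to 2.83) covered 1. The target genes Cyp1a1, Cyp1a2 and Cyp1b1 were listed at 0 in both libraries. The floor of 3 counts is 0.150 CPM in the DKO library and 0.137 CPM in the WT library, and the exact interval of a count of 0 reaches 0.185 CPM in the DKO library and 0.168 CPM in the WT library. Nqo1, a target of both this receptor and NRF2, had 1 count in the DKO library and 14 in the WT library. It was under the minimum, and without that filter it was the 1 lower gene of the pathway. Arnt, its partner subunit, had a log2 ratio of 0.06, and Hsp90ab1 and Ptges3, which encode chaperones of the receptor, had ratios of 0.699 and 0.658.

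Cdh1 encodes E-cadherin, the adhesion protein of epithelia that resident T cells, Langerhans cells and some other leukocytes also make. It had 424 counts (21.2 CPM) in the DKO library and 188 counts (8.57 CPM) in the WT library, and was 2.47-fold higher (2.08 to 2.95). E-cadherin is bound by the integrin CD103 with beta7 and by the inhibitory receptor KLRG1. Klrg1 was the 1 higher gene among 7 partners, where 11.6% of all genes compared were higher. Its ratio was 9.91-fold (8.58 to 11.6), at 90.1 CPM in the DKO library and 9.07 CPM in the WT library. The CD103 gene Itgae, at 18.6 CPM in the DKO library and 14.0 CPM in the WT library, and Itgb7, at 1199 CPM in the DKO library and 866 CPM in the WT library, had ratios of 1.33 and 1.39. Among the catenin genes of this group, Ctnnd1 and Jup had ratios of 1.87 (1.502 to 2.34) and 1.78 (1.46 to 2.18), and Ctnna1 and Ctnnb1 had log2 ratios of 0.00 and -0.05. The epithelial keratin genes Krt8 and Krt18 were listed at 0 in both libraries, while Epcam, an epithelial and Langerhans cell gene, had 161 counts in the DKO library and 98 in the WT library.

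Qpct encodes glutaminyl cyclase, a secreted enzyme that turns an N-terminal glutamine into pyroglutamate and so protects peptides and some chemokines. It had 230 counts (11.5 CPM) in the DKO library and 50 counts (2.28 CPM) in the WT library. The 5.01-fold ratio (3.70 to 6.998) was the largest of the 9, and 3.32% of all genes compared had a larger one. Qpctl, the Golgi-resident relative, had 7.502 CPM in the DKO library and 10.2 CPM in the WT library, a ratio of 0.739 (0.596 to 0.912), so the related genes lay on opposite sides. Cd47, whose protein is modified by the Golgi enzyme, had a log2 ratio of 0.09. Neither Ccl2, listed at 0 in both libraries, nor Ccl8, with 4 counts in the DKO library and 0 in the WT library, both chemokine substrates of the enzyme, reached the 1 CPM minimum.

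Osgin1 encodes an inhibitor of cell growth induced by oxidative stress, a target of the transcription factor NRF2. It had 172 counts (8.60 CPM) in the DKO library and 58 counts (2.64 CPM) in the WT library, and was 3.24-fold higher (2.40 to 4.46). Of 8 other genes of the oxidative stress response compared, 2 were higher, 0 lower and 6 neither, beside 11.6% higher among all genes. Srxn1, which encodes sulfiredoxin, was 3.35-fold higher (2.48 to 4.63), at 8.75 CPM in the DKO library and 2.60 CPM in the WT library. Slc7a11, a subunit gene of the cystine transporter, had 26 counts in the DKO library and 0 in the WT library. That is 9.51 times a floor of 3 counts in the WT library, and the exact interval of the ratio begins at 7.20. The NRF2 gene Nfe2l2 itself had a log2 ratio of 0.16, its inhibitor Keap1 0.01, and the glutathione synthesis genes Gclm and Gclc -0.02 and 0.00. The heme-degrading enzyme gene Hmox1 had a ratio of 1.51 (1.44 to 1.58) and the thioredoxin reductase gene Txnrd1 one of 1.05 (0.996 to 1.104). Nqo1, described with the AHR pathway, was below the minimum.

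Litaf encodes a membrane protein of late endosomes and lysosomes that takes part in the sorting of cargo for degradation. It had 637 counts (31.9 CPM) in the DKO library and 295 counts (13.4 CPM) in the WT library, and was 2.37-fold higher (2.06 to 2.73). Its exons share 95 bases with those of Snn on the opposite strand in GENCODE M21, 1.84% of their length, and Snn had 285 counts in the DKO library and 197 in the WT library. None of 5 genes linked to it, its relative Cdip1 (listed as 5730403B10Rik), the ubiquitin ligase genes Nedd4 and Itch, the sorting gene Tsg101 and Tnf, passed 2-fold. The nearest was Tnf, at 20.7 CPM in the DKO library and 10.7 CPM in the WT library, a ratio of 1.93 (1.64 to 2.27). Tsg101 lay on the other side, at a ratio of 0.683 (0.597 to 0.780).

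Inpp4b encodes a lipid phosphatase that acts on products of PI3K. It had 1264 counts (63.2 CPM) in the DKO library and 760 counts (34.6 CPM) in the WT library, and its ratio of 1.82 (1.67 to 2.00) lay just inside the 2-fold limit. Scaled by T cell receptor genes it passed that limit, at a log2 ratio of 1.11. Its close relative Inpp4a was 2.61-fold higher (2.10 to 3.30), at 13.5 CPM in the DKO library and 5.15 CPM in the WT library. Other lipid phosphatase and kinase subunit genes lay near 0, with log2 ratios of 0.05 for Inppl1, -0.15 for Inpp5d, -0.18 for Pik3cd and -0.06 for Pik3r1. Of the 6 genes in this group 1, Inpp4a, was past 2-fold, where 11.6% of all genes compared were higher.

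**Figure D3:**
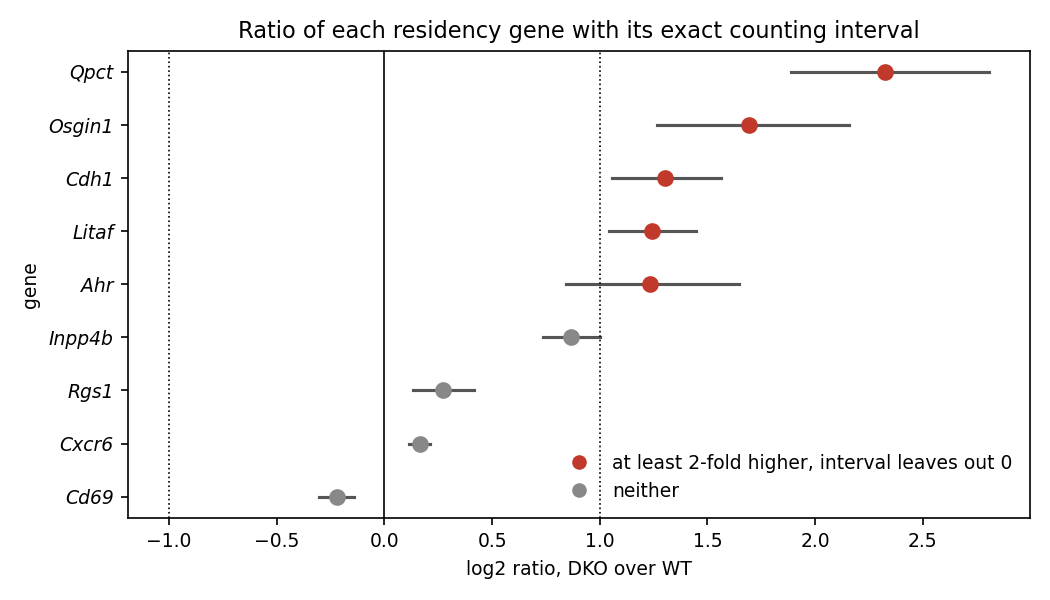
Log2 ratio (DKO over WT) of each residency gene, with its exact 95% interval of counting error; red points are at least 2-fold higher with an interval that leaves out 0, grey points are neither, and dotted lines mark 2-fold. Ahr is the red point whose interval crosses the 2-fold line, and Inpp4b is the grey point whose interval ends at it.

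Levels can be compared between genes only per length, so CPM was divided by exonic length in kilobases from GENCODE M21. In both libraries Cxcr6 was the highest, at 183 CPM per kb in the DKO library and 163 in the WT library, above 98.1% and 97.7% of the genes compared that have a length. Cd69 came next, at 16.6 CPM per kb in the DKO library and 19.4 in the WT library. Ahr was the lowest in both, at 1.36 CPM per kb in the DKO library and 0.577 in the WT library. In the DKO library the order below Cd69 was Litaf, Rgs1, Inpp4b, Cdh1, Qpct, Osgin1 and Ahr, and counting intervals of Litaf and Rgs1, of Inpp4b and Cdh1, and of Cdh1 and Qpct overlapped. In the WT library it was Rgs1, Inpp4b, Litaf, Cdh1, Osgin1, Qpct and Ahr, and those of Inpp4b and Litaf, of Osgin1 and Qpct, and of Qpct and Ahr overlapped. The span between the highest and lowest gene was 134-fold in the DKO library and 283-fold in the WT library. The gene models behind the authors' counts may differ in length from those used.

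Promoter windows of 250 bases before the gene start were held by the RefSeq table (GRCm38.p6) for 4 of the 9 genes. Windows of Osgin1 and Litaf are shown as those of genes past 2-fold, and that of Cxcr6 as the gene with the highest level per length and almost no difference. Sequences run 5′ to 3′ on the gene's strand, and capitals mark the motifs found.
Osgin1: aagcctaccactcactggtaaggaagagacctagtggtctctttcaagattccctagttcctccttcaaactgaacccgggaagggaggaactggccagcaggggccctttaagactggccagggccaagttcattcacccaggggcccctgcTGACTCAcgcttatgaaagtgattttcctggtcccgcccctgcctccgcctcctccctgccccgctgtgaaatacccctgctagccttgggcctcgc
Litaf: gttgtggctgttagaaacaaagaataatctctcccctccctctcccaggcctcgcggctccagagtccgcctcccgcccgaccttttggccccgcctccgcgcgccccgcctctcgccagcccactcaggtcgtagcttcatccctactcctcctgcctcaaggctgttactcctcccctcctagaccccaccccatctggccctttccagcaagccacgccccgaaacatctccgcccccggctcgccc
Cxcr6: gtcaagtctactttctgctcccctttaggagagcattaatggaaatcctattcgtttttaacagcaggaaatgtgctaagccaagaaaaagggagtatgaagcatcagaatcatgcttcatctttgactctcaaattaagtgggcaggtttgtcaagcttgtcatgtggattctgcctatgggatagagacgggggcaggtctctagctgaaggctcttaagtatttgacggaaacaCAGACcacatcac
Osgin1 is shown at chr8:119436897-119437146 (plus strand), Litaf at chr16:10993122-10993371 (minus strand) and Cxcr6 at chr9:123806227-123806476 (plus strand). Both strands were searched for the T-box motif AGGTGTGA and its core AGGTGT, the Smad motif CAGAC, the AHR motif TNGCGTG, the NRF2 motif TGACNNNGC and the AP-1 motif TGANTCA, the last added after the windows had been read. The T-box core is part of the full motif, and matches to the NRF2 and AP-1 motifs can overlap. Osgin1 held 1 AP-1 match, which starts 97 bases before the gene start, and 6.73% of 32536 promoter windows of this length held that motif. Cxcr6 held 1 Smad match, 13 bases before the gene start, and 42.2% of windows held that motif. No other exact match was found in these 4 windows. The T-box core stood in 11.9% of all windows, the full T-box motif in 1.12%, the AHR motif in 4.13% and the NRF2 motif in 10.2%. Variants of the motifs were not searched. Read on the opposite strand with the bases that follow it, the AP-1 match of Osgin1 differs from the NRF2 motif at 1 base. A match is not evidence of binding.

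Other residency genes were found on both sides. Of 28 genes outside the described set, 27 were compared, with 8 higher, 4 lower and 15 neither, and a median log2 ratio of 0.52. Among all genes compared, 11.6% were higher and 3.60% were lower. Fabp5, a fatty acid binding protein gene, was 10.6-fold higher (5.78 to 23.8) from 101 counts in the DKO library and 10 in the WT library. Gpr34 was 3.69-fold higher, from 270 counts in the DKO library and 80 in the WT library. Xcl1, which encodes a chemokine for dendritic cells, was 3.70-fold lower (3.45 to 3.98), at 47.6 CPM in the DKO library and 176 CPM in the WT library, and Nr4a2, an early-response nuclear receptor gene, was 3.27-fold lower from 44 counts in the DKO library and 159 in the WT library. Entpd1, which encodes the ectoenzyme CD39, and Chn2 were 2.20-fold and 2.96-fold higher, Crtam, an adhesion receptor gene, was 2.36-fold lower, and Nr4a1, the early-response relative of Nr4a2, had a ratio of 1.61 (1.49 to 1.74). Outside that list, the integrin gene Itga1, which encodes CD49a of resident T cells, was 6.51-fold higher, at 73.5 CPM in the DKO library and 11.3 CPM in the WT library.

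Regulators of residency had a median of 0.34, with 3 of 12 higher, 0 lower and 9 neither, beside 11.6% higher among all genes compared. Prdm1, which encodes Blimp-1, the relative of Hobit, was 2.43-fold higher (2.07 to 2.86), at 24.4 CPM in the DKO library and 10.03 CPM in the WT library. Bhlhe40 was 3.23-fold higher (2.88 to 3.63) and Id2 2.49-fold higher (2.37 to 2.62). Runx3, which drives CD8+ lineage and residency programmes, had the opposite sign, at 187 CPM in the DKO library and 304 CPM in the WT library, a ratio of 0.614 (0.590 to 0.639). Tbx21, the gene of T-bet, the T-box relative of Eomes, had 382 CPM in the DKO library and 348 CPM in the WT library, a ratio of 1.10 (1.07 to 1.14), and Maf one of 1.85 (1.56 to 2.20). Prdm1 is also abundant in plasma cells, whose markers summed to 518 CPM in the DKO library and 289 CPM in the WT library and had a median of 0.33, or 1.04 with a minimum of 5 CPM.

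Genes of recirculating cells, which residency lowers, had a median of -0.09, with 2 of 18 higher, 0 lower and 16 neither. Among all genes compared 11.6% were higher and 3.60% were lower, so the share higher was near that of all genes. Under T cell receptor gene scaling the median became 0.16, while that of all genes moved from 0.00 to 0.25. S1pr5, an egress receptor gene of NK and effector T cells, was 3.84-fold higher (3.48 to 4.24), at 91.4 CPM in the DKO library and 23.8 CPM in the WT library. Cx3cr1, the fractalkine receptor gene, was 5.15-fold higher (4.73 to 5.61), at 153 CPM in the DKO library and 29.6 CPM in the WT library. Markers of macrophages and monocytes had a median log2 ratio of 0.97 in the same comparison, and their part in the Cx3cr1 value was not tested. Klf2, the factor that maintains S1pr1, had 711 CPM in the DKO library and 722 CPM in the WT library, a log2 ratio of -0.02. Ccr7, the receptor gene for homing to lymph nodes, had a ratio of 0.557 (0.535 to 0.580). Of the 18 log2 ratios, 6 lay above 0 and 12 below. S1pr5 and S1pr1 had opposite signs, and S1pr1 stayed within 2-fold.

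**Figure D4:**
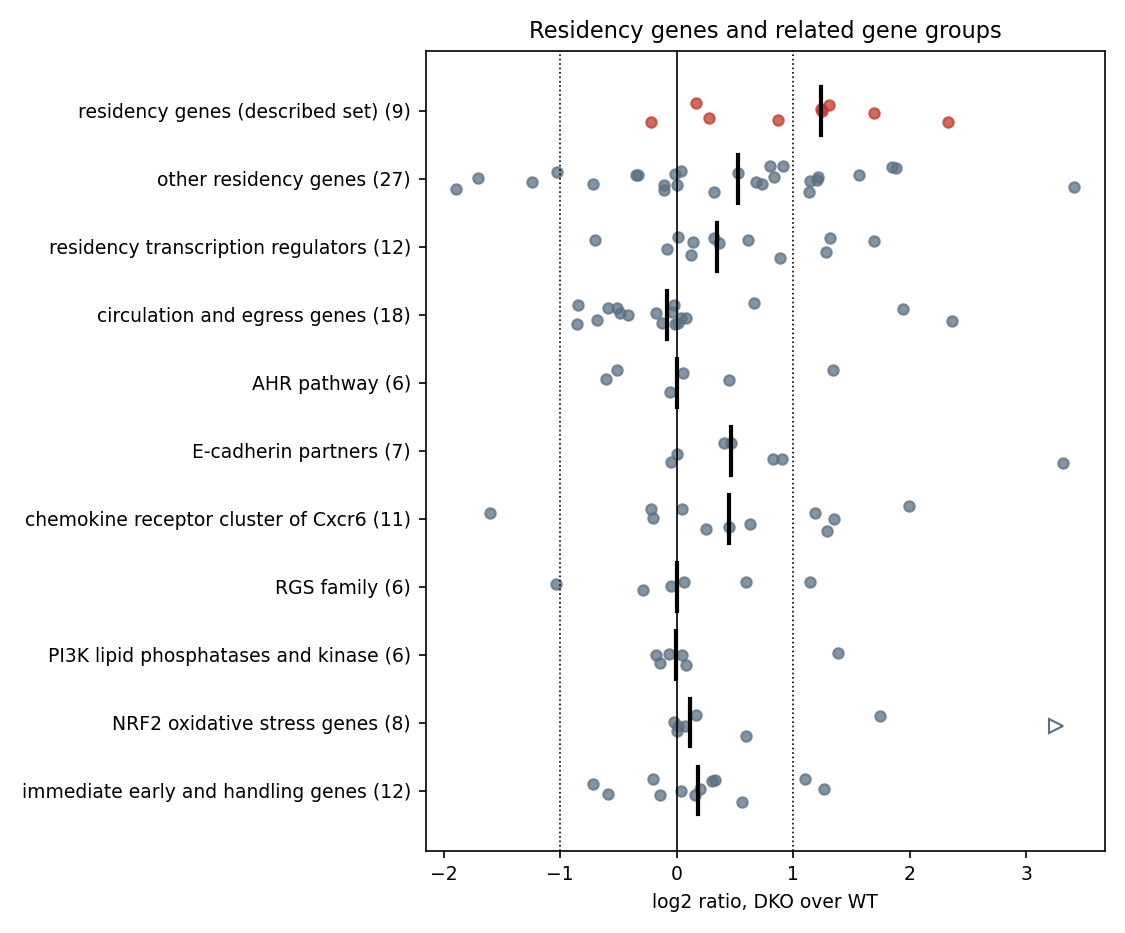
Log2 ratio (DKO over WT) of the 9 residency genes (red) and of genes in 10 related groups (grey-blue), with the number compared in brackets; each point is a gene, black bars are group medians and dotted lines mark 2-fold. The open triangle is Slc7a11, at 0 in the WT library and drawn at its fold over a floor of 3 counts. The median is 1.24 for the residency genes and -0.09 for circulation and egress genes.

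Cd69 and Rgs1 also respond within hours to activation and handling, so immediate early and stress genes were read beside them. The 12 such genes had a median of 0.18, and 2 were higher, 0 lower and 10 neither, beside 11.6% higher among all genes compared. Dusp1 was 2.14-fold higher and Atf3 2.40-fold higher, Fos had 236 CPM in the DKO library and 188 CPM in the WT library, and Hspa1a had a ratio of 0.610 (0.538 to 0.689). Fosb had a ratio of 0.663 (0.574 to 0.764), so members of the group lay on both sides. Their part in the Cd69 and Rgs1 values was not tested.

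Marker lists named for other cell types were counted beside these genes. Several residency genes (Ahr, Cdh1, Litaf and Qpct among them) are also made by myeloid or dendritic cells. Whether the listed markers were read from such cells or from the sorted CD8+ T cells was not tested. All 11 marker lists of other cells had a median above 0, between 0.33 for plasma cells (1.04 with a minimum of 5 CPM) and 2.14 for basophils and mast cells. Of 68 such markers compared, 36 were higher and 2 lower, where 11.6% of all genes compared were higher and 3.60% lower. Between 1 and 5 CPM 35% of all genes were higher and 15.5% lower. Between 5 and 20 CPM the shares were 18.8% and 3.84%. Neutrophil markers summed to 2580 CPM in the DKO library and 557 CPM in the WT library, with 6 of 9 higher, led by Ngp at 7.49-fold. Macrophage and monocyte markers summed to 2155 CPM in the DKO library and 1028 CPM in the WT library (4 of 8 higher), and dendritic cell markers to 1457 CPM in the DKO library and 479 CPM in the WT library (5 of 8 higher). The major histocompatibility gene H2-Aa had 1278 CPM in the DKO library and 398 CPM in the WT library, and Cd4 had 79.0 CPM in the DKO library and 17.4 CPM in the WT library. No matched marker in these 3 myeloid lists was at 0 in either library.

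Markers of CD4+ and FOXP3+ T cells summed to 239 CPM in the DKO library and 100.3 CPM in the WT library, with 6 of 8 higher, and those of NK cells to 1215 CPM in the DKO library and 828 CPM in the WT library, with 3 of 7 higher. Those of innate-like T cells summed to 195 CPM in the DKO library and 114 CPM in the WT library, with 3 of 7 higher, and Il23r at 0 in both libraries. B cell markers summed to 89.3 CPM in the DKO library and 130.2 CPM in the WT library, with 1 higher (Ms4a1) and 1 lower (Cd22) of 6. Plasma cell markers summed to 518 CPM in the DKO library and 289 CPM in the WT library, with 2 of 5 higher and 1 lower, and erythroid and platelet markers to 30.2 CPM in the DKO library and 14.5 CPM in the WT library, with 3 of 4 higher and both globin genes at 0. Basophil and mast cell markers summed to 16.2 CPM in the DKO library and 5.56 CPM in the WT library, with 2 of 3 higher. Epithelial, stromal and endothelial markers summed to 118 CPM in the DKO library and 85.1 CPM in the WT library, with 1 of 3 higher, Col1a1 from 23 counts in the DKO library and 1 in the WT library. Markers of the sorted cells, Cd8a among them at 978 CPM in the DKO library and 998 CPM in the WT library, had a median of -0.27, with 0 of 7 higher and 1 lower, Cxcr5, at 33.4 CPM in the DKO library and 155 CPM in the WT library. Ikzf2, which encodes Helios, had 47.2 CPM in the DKO library and 61.5 CPM in the WT library. The part of these cells in the differences of Qpct, Osgin1, Cdh1, Litaf and Ahr, or of genes in the related groups, was not tested.

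**Figure D5:**
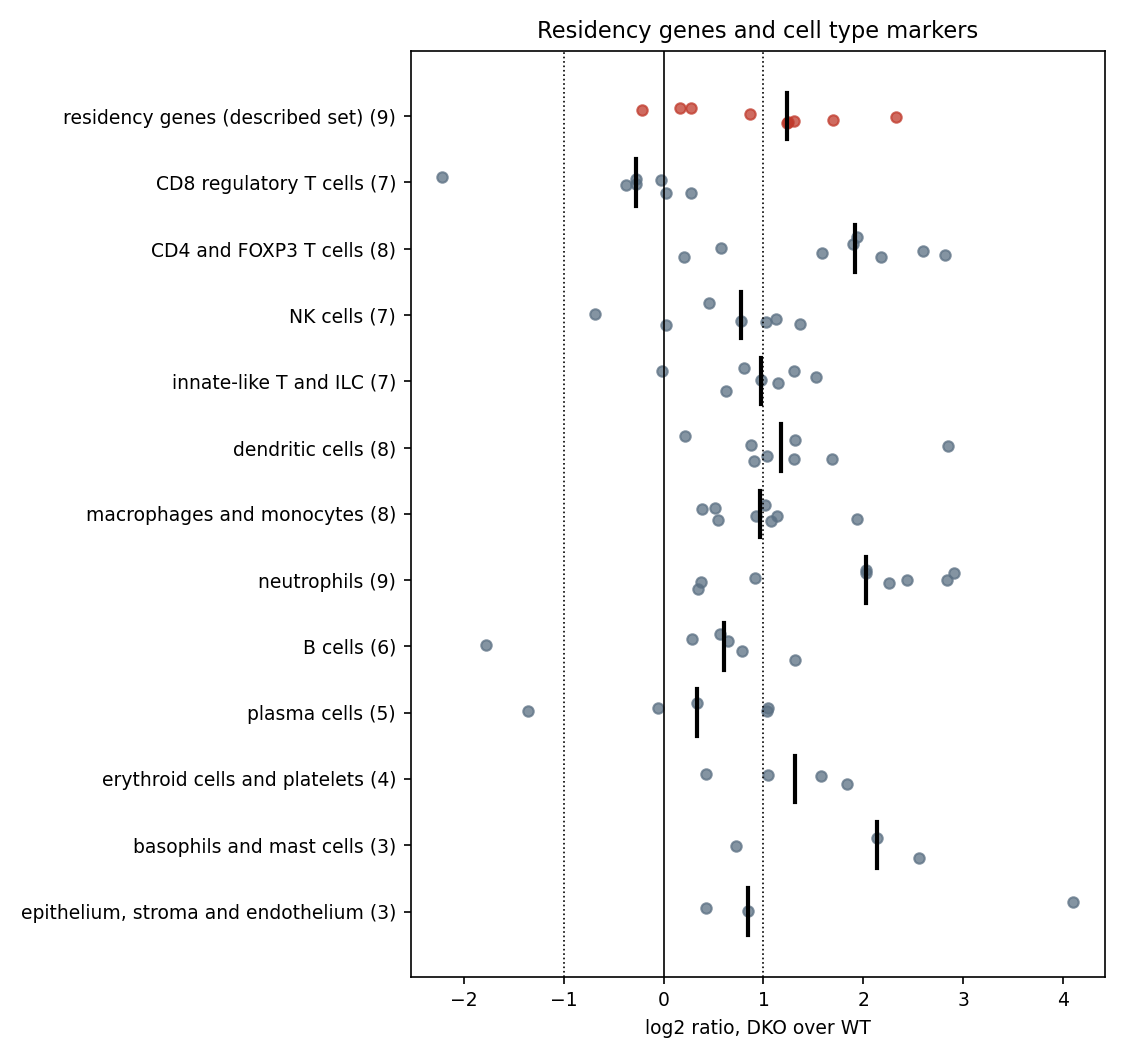
Log2 ratio (DKO over WT) of the 9 residency genes (red) and of cell type markers (grey-blue), with the number compared in brackets; each point is a gene, black bars are medians and dotted lines mark 2-fold. The markers of CD8+ regulatory T cells have a median of -0.27, and the 11 lists named for other cells lie at medians of 0.33 or more.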

How the data were processed

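RNA of flow-sorted spleen cells was measured in 1 library per genotype, grouped by the genotype label. The authors deposited raw whole-number counts of reads per gene. Per the submitters' processing notes the build was mm9 and the tools were HTSeq, TopHat2 2.0.8b and bcl2fastq, with no role stated. The sources used here give neither annotation nor strand setting, so reads from opposite-strand neighbours that overlap cannot be assigned with certainty. In each file 5 rows name no gene and were left out. Non-unique alignments, the largest of them, held 64.8% of the DKO total and 66.4% of the WT total, reads outside genes 4.45% of the DKO total and 4.89% of the WT total, and ambiguous reads 0.212% of the DKO total and 0.209% of the WT total.

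Counts were scaled by TMM in edgeR 4.0.16 (R 4.3.3; factors 1.02 for DKO and 0.983 for WT) and given as CPM. Log2 ratios, and the folds made from them, used a prior count of 0.5. Intervals are exact 95% ones (Clopper-Pearson for a ratio, Poisson for a level, scipy 1.17.1). Without molecular identifiers reads do not stand for independent molecules, and intervals and floors (3 counts per library) therefore cover counting error only. A gene was called when it reached 2-fold with an interval leaving out 1, provided that one library or the other held 1 CPM or more. Variation between animals could not be modelled from 1 library of each genotype. The calculation was run on simulated counts. Its only pass rule was interval coverage without variation between animals, so it checks the computation and not the effect of that variation.

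The members, 13 gene lists and 12 marker lists were chosen with earlier results of these data known. Named were all members, genes named whatever their value, and from each list up to 4 genes furthest from 0 on the log2 scale among those reaching 5 CPM. Some genes counted in the lists are not reported by name here. Other genes in the text were chosen after their values were seen. Lengths, gene order and overlaps come from GENCODE M21 (GRCm38, not mm9), which gave lengths for 90.3% of the genes compared, so coordinates are printed for RefSeq promoter windows only. Alternatives were scaling by total counts, by DESeq2 1.42.0 size factors or by 20 genes of T cell receptor signalling, no filter or 5 CPM, limits of 1.5-fold and 4-fold, and a prior count of 5. The list used for that scaling had a median log2 ratio of -0.24, with 0 of 20 past 2-fold.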

Additional observations from a re-analysis of the deposited data

How the results depend on the processing

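Of 567 values recomputed under the alternatives, 471 stayed within 1.5 times for counts or within counting error for ratios and medians, 85 moved further and 11 changed sign. The residency genes called higher were the same 5 under total-count and DESeq2 scaling. They were 6 (with Inpp4b) under a 1.5-fold limit or scaling by T cell receptor genes, and 1 (Qpct) under a 4-fold limit. DESeq2 scaling hardly differed from TMM, with log2 ratios for Ahr of 1.237 and 1.236. Neither filter could change a call of the 9 genes, because each reached at least 8.40 CPM in one library. Those unchanged values are among the 471. Of 36 recomputed log2 ratios of single residency genes, 5 moved beyond counting error and 1 changed sign, that of Cd69, to 0.022 under scaling by T cell receptor genes. That scaling raises all log2 ratios by a constant and moved the median of all genes from 0.00 to 0.25. It also turned the medians of circulation and egress genes (0.16), the AHR pathway (0.24), PI3K genes (0.23), Litaf partners (0.22) and the Qpct group (0.068) positive. Total-count scaling did so for the AHR pathway (0.047), PI3K genes (0.039) and Litaf partners (0.029), and gave -0.037 for circulation and egress genes. With a minimum of 5 CPM the plasma cell median was 1.04. Without a filter the RGS family median was -0.051, that of the Qpct group 0.089 and that of basophils and mast cells 1.43.

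Other residency genes counted 13 higher at 1.5-fold, 1 higher and 0 lower at 4-fold, and 2 lower under scaling by T cell receptor genes. Circulation and egress genes counted 4 lower at 1.5-fold and 1 higher at 4-fold. Among all genes, 739 were higher and 146 lower with a minimum of 5 CPM, 692 lower without a filter, 2073 higher and 987 lower at 1.5-fold, and 515 higher and 138 lower at 4-fold. No paired analysis was possible because each genotype has 1 library. No replicate could be left out for the same reason, so the spread between animals is unknown, and with 50 to 230 counts Ahr, Qpct and Osgin1 have the widest intervals of the 9 genes.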
